A study of Mus musculus with 6 samples.

Results

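The RNA-seq libraries of white adipose tissues (WATs) were examined for 38 genes of the cell cycle, 17 that act from late G1 through DNA replication (S-phase genes) and 21 that act in G2 and mitosis (mitotic genes). The genes were taken by symbol from a written list that does not use their values, though earlier results of these data were known. All 38 were found among the 21456 genes in the deposited table. All 38 also reached a mean of 10 normalized counts over the mice and were tested with the 16157 genes that did so. The study compared 3 control mice (Ntsr2 flox/flox) with 3 Ntsr2 AKO mice (Adipoq-cre::Ntsr2 flox/flox) on a chow diet. Both groups carry the floxed Ntsr2 alleles, and only the Ntsr2 AKO mice carry Cre recombinase, whose expression from Adipoq is restricted to adipocytes. Other cells of the tissue keep Ntsr2, the receptor 2 for the peptide neurotensin. The labels give the tissue as adipose and name neither the depot nor the age or sex of the mice. They number the mice 3, 4 and 5 in each group, and these numbers name the mice below.

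Between 60405373 and 66098226 reads were recovered for the control mice, and between 54085088 and 56268725 for the Ntsr2 AKO mice. Ntsr2 had 83.8, 64.0 and 153 normalized counts in control mice and 3.10, 8.29 and 0 in Ntsr2 AKO mice, and the groups did not overlap (log2 fold change −4.81 ± 0.91 SE, limma adjusted p = 0.499, DESeq2 adjusted p = 1.1e-04). All 10 adipocyte markers were above 0 in every mouse. Skeletal muscle markers stood apart in control mouse 5 (summed normalized count 2807580) and were also raised in Ntsr2 AKO mice 4 and 5 (89588 and 196660), against 395 to 1434 in the other 3 mice. B cell markers were highest in control mouse 3 (973, against 69.1 to 226 in the others).

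A cell that commits to division first licenses its replication origins by loading the MCM helicase, and E2F factors then switch on the enzymes that copy DNA. Mitotic genes follow later, when cyclin B with Cdk1 drives entry into mitosis and the anaphase-promoting complex (APC/C) ends it by destroying cyclins. Mature adipocytes are post-mitotic, so transcripts of mitotic genes in fat mark mostly the dividing progenitors, macrophages and other cells around the adipocytes, whereas several replication factors are also made in cells at rest.

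No difference between Ntsr2 AKO and control mice was found for any of the 38 genes. None passed an adjusted p of 0.05 with limma, where 0.00619% of all genes passed (1 of 16157), and none did so with DESeq2, where 1.36% passed. None had an unadjusted limma p under 0.05, a mark that 8.35% of all genes reached. None was without overlap between the 3 control and the 3 Ntsr2 AKO mice, which held for 15.0% of all genes. Of the 38 genes 20 had a higher and 18 a lower mean log2 value in Ntsr2 AKO mice, a split that turned with single mice (31 and 7 without control mouse 4, 9 and 29 without Ntsr2 AKO mouse 5). Log2 fold changes had a median of −0.02 over the S-phase genes and 0.10 over the mitotic genes, beside −0.01 for all genes tested. The 95% confidence intervals were wide for the mitotic genes (median half-width 1.5 on the log2 scale, against 0.66 for the S-phase genes and 0.56 for all genes), so changes of about that size were not detectable with 3 mice a group.

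**Figure D1:**
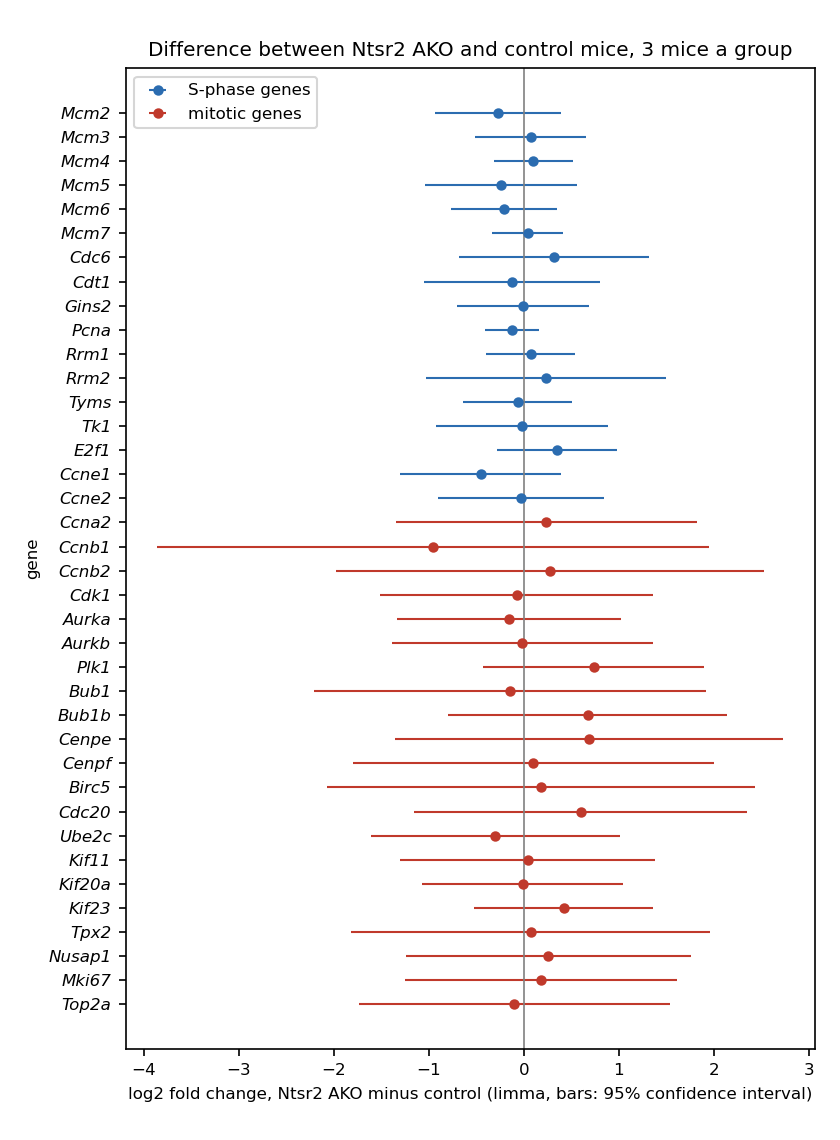
Log2 fold change of each of the 38 genes (y axis) between Ntsr2 AKO and control mice from limma on log2(normalized count + 1), with 95% confidence intervals, S-phase genes in blue and mitotic genes in red. Every interval spans 0, and that of Ccnb1 is the widest, from −3.86 to 1.95.

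Among the 9 genes of origin licensing and the helicase, log2 fold changes lay between −0.27 and 0.32. Mcm7, a subunit of the MCM2-7 helicase, had 1866, 2130 and 1709 normalized counts in control mice (1902 ± 213, SD, n = 3) and 2214, 2026 and 1642 in Ntsr2 AKO mice (1961 ± 292, SD, n = 3). The groups overlapped through most of their range (log2 fold change 0.04, 95% CI −0.33 to 0.41). Mcm2, another subunit of that ring, had 246, 361 and 294 normalized counts in control mice and 204, 210 and 344 in Ntsr2 AKO mice. Its log2 fold change, −0.27 ± 0.28 SE, had the smallest p of the 9 genes (limma adjusted p = 0.801), and Ntsr2 AKO mouse 5 lay above 2 of the 3 control mice. The other subunits Mcm3, Mcm4, Mcm5 and Mcm6 had log2 fold changes of 0.07, 0.10, −0.24 and −0.21. Cdc6 and Cdt1, which load the helicase, had 0.32 and −0.12, and Gins2, a part of the active helicase, had −0.01. Gins2 shares 67.3% of its exon bases with Gse1 on the other strand, and reads of the pair cannot be told apart in a library that does not mark strand. The same limit holds for Kif20a (29.3% shared with Cdc23), Ccne2 (17.4% with Ints8) and Ccna2 (12.5% with Exosc9). Over the mice Cdc23 had 2135 to 2748 normalized counts, Ints8 1349 to 1720 and Exosc9 1016 to 1399, each above its partner in every mouse. Gse1 had 559 to 1387 and was below Gins2 in control mouse 4 (737 against 738) and Ntsr2 AKO mouse 5 (559 against 688). The part of these overlapping genes' reads in the values of Gins2, Kif20a, Ccne2 and Ccna2 was not tested.

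Replication fork and nucleotide genes had the smallest median within-group SD of the 6 role groups (0.29 on the log2 scale). Pcna, the sliding clamp of the DNA polymerases, was the most abundant of the 38 genes per length, with 1367 normalized counts per kilobase of exon, followed by Mcm7 with 436. It had 3205, 3801 and 3271 normalized counts in control mice (3425 ± 327, SD, n = 3) and 3209, 3290 and 2910 in Ntsr2 AKO mice (3136 ± 200, SD, n = 3). Ntsr2 AKO mouse 5 was the lowest and control mouse 4 the highest, and the log2 fold change was −0.13 (95% CI −0.41 to 0.16). Rrm1 and Rrm2, the subunits of ribonucleotide reductase, had log2 fold changes of 0.07 and 0.24, Tyms, thymidylate synthase, −0.06, and Tk1, thymidine kinase, −0.02. Rrm2, the subunit that is made mainly in dividing cells, had 219 normalized counts in control mouse 4 and 58.5 to 136 in the other 5 mice.

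In G1/S control, E2f1, a transcription factor that turns on replication genes, had 289, 324 and 217 normalized counts in control mice and 296, 303 and 471 in Ntsr2 AKO mice. Control mouse 4 lay above 2 of the 3 Ntsr2 AKO mice (log2 fold change 0.35 ± 0.27 SE, within-group SD 0.34, limma adjusted p = 0.739). Ccne1 and Ccne2, the E cyclins that activate Cdk2, had log2 fold changes of −0.46 and −0.03. Ccne1 had 67.2, 136 and 120 normalized counts in control mice and 77.4, 66.3 and 82.0 in Ntsr2 AKO mice, so that control mouse 3 lay within the Ntsr2 AKO range.

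Every mitotic gene but Plk1 had a within-group SD larger than the size of its log2 fold change. The SD and the log2 fold change were 0.63 and 0.74 for Plk1, and 0.53 and 0.42 for Kif23. Ccna2, the cyclin of S phase and G2, had 101, 358 and 117 normalized counts in control mice (192 ± 144, SD, n = 3) and 140, 113 and 440 in Ntsr2 AKO mice (231 ± 182, SD, n = 3). Control mouse 4 and Ntsr2 AKO mouse 5 were both more than 200 above the other 4 mice. Ccnb1, cyclin B1, had 23.0, 148 and 26.9 normalized counts in control mice and 6.19, 13.5 and 129.5 in Ntsr2 AKO mice, the lowest value resting on 6 reads (95% exact Poisson interval 2.20 to 13.1, counting error only). Cdk1, the kinase of cyclin B, had 81.0, 249 and 67.1 in control mice and 83.6, 72.6 and 191 in Ntsr2 AKO mice. The same 2 mice were the high ones for all 3 genes. Ccnb1 and Cdk1 are named here, as are Ccnb2, Birc5, Top2a, Aurka and the remaining genes outside the rule given in the processing, after their values were seen.

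Plk1, a kinase of mitotic entry and of spindle assembly, had 39.6, 101 and 31.7 normalized counts in control mice and 74.3, 81.9 and 99.2 in Ntsr2 AKO mice, with means of 57.4 and 85.1. All 3 Ntsr2 AKO mice lay above control mice 3 and 5 and below control mouse 4. Its log2 fold change, 0.74 ± 0.49 SE, had the smallest p of the 38 genes (limma adjusted p = 0.698). Ccnb2, cyclin B2, had 18.7 normalized counts in Ntsr2 AKO mouse 4 and 166 in Ntsr2 AKO mouse 5, within a single genotype. Aurka and Aurkb, the Aurora kinases of the spindle pole and of the chromosome, had log2 fold changes of −0.16 and −0.02.

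Among kinetochore, checkpoint and APC/C genes, Bub1b, which holds anaphase back until chromosomes are attached, had 65.3, 149 and 30.7 normalized counts in control mice and 91.9, 77.7 and 173 in Ntsr2 AKO mice. The groups overlapped, with control mouse 4 above 2 Ntsr2 AKO mice (log2 fold change 0.67 ± 0.62 SE, limma adjusted p = 0.782). Birc5, survivin, a subunit of the chromosomal passenger complex, had 23.0, 178 and 42.2 in control mice and 25.8, 54.9 and 179 in Ntsr2 AKO mice, with control mouse 4 and Ntsr2 AKO mouse 5 again the high ones. Cenpe and Cenpf, proteins of the outer kinetochore, had log2 fold changes of 0.69 and 0.10, the checkpoint kinase Bub1 −0.14, and Cdc20, the activator of the APC/C, 0.60. Their intervals each spanned more than 3 on the log2 scale.

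Ube2c, the ubiquitin-conjugating enzyme of the APC/C, departed from the rest. It had 109.5, 367 and 423 normalized counts in control mice (299.9 ± 167, SD, n = 3) and 159, 184 and 311 in Ntsr2 AKO mice (218 ± 81.2, SD, n = 3), with control mouse 5 the highest. It was the most abundant mitotic gene per length (99.6 normalized counts per kilobase). In the annotation 22.8% of its exon bases are shared with Tnnc2, a troponin of fast skeletal muscle that lies on the other strand, and Tnnc2 had 135724 normalized counts in control mouse 5, 6209 and 14446 in Ntsr2 AKO mice 4 and 5 and 109 to 137 in the other 3 mice. The part of Tnnc2 reads in the Ube2c value was not tested. Aurka was the other mitotic gene with its highest control value in control mouse 5, 195 normalized counts against 64.4 and 122, and it shares no exon bases with another gene.

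Genes of the spindle, cytokinesis and chromosome structure all had control mouse 4 and Ntsr2 AKO mouse 5 as the highest mouse of their groups. Mki67, the antigen of the Ki-67 stain for proliferating cells, had 220, 943 and 257 normalized counts in control mice (473 ± 407, SD, n = 3) and 418, 274 and 673 in Ntsr2 AKO mice (455 ± 202, SD, n = 3). Control mouse 4 had 4.29 times the count of control mouse 3, while the genotypes differed by a log2 fold change of 0.18 (95% CI −1.26 to 1.61). Top2a, the topoisomerase that untangles chromosomes, had 112, 662 and 212 in control mice and 199, 151 and 426 in Ntsr2 AKO mice. Kif23, a kinesin of the central spindle in cytokinesis, had 113, 179.5 and 70.0 in control mice and 146, 123 and 192 in Ntsr2 AKO mice, the narrowest spread of the mitotic genes (log2 fold change 0.42 ± 0.40 SE, limma adjusted p = 0.787). The motors Kif11 and Kif20a and the spindle assembly factors Tpx2 and Nusap1 had log2 fold changes from −0.01 to 0.26.

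**Figure D2:**
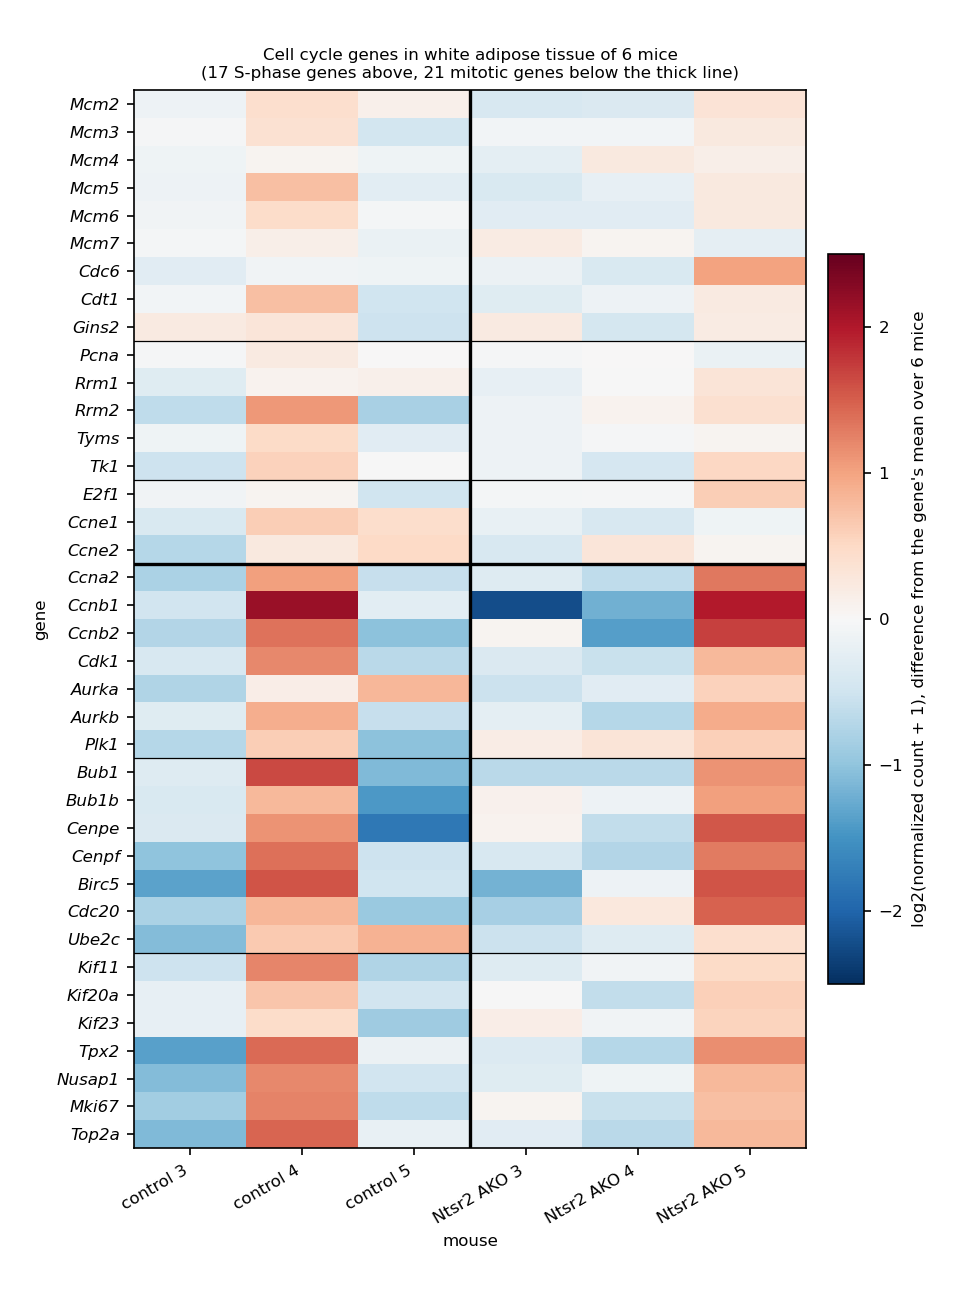
Log2(normalized count + 1) of the 38 genes (rows) in the 6 mice (columns), as the difference from each gene's mean over the mice, with red above and blue below that mean. In the lower block of 21 mitotic genes the columns of control mouse 4 and Ntsr2 AKO mouse 5 are red, with Ube2c and Aurka also red in control mouse 5, and in the upper block of 17 S-phase genes the colours are pale.

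Control mouse 4 was the highest control and Ntsr2 AKO mouse 5 the highest Ntsr2 AKO mouse in 19 of the 21 mitotic genes (90.5%) and in 11 of the 17 S-phase genes (64.7%), beside 17.6% of all genes tested. The pattern was noticed in these values and is a description. In the same 19 mitotic genes these 2 mice lay above all of the other 4, which held for 11.5% of all genes. Summed normalized counts of the 21 mitotic genes were 1426, 5101 and 1943 in control mice and 2042, 1775 and 4518 in Ntsr2 AKO mice. The sums of the 17 S-phase genes were 9756, 12413 and 9786 in control mice and 10072, 10206 and 10839 in Ntsr2 AKO mice. Both sums thus had the same highest mouse in each group, with a much smaller lead in the S-phase sum. Ntsr2 AKO mouse 5 was above control mouse 4 in 9 of the 21 mitotic genes, so neither of the high mice led throughout.

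The within-group SD of log2(normalized count + 1) had a median of 0.94 over the mitotic genes, 0.36 over the S-phase genes and 0.30 over all genes tested. It ranged from 0.53 for Kif23 to 1.86 for Ccnb1 among mitotic genes and from 0.12 for Pcna to 0.76 for Rrm2 among S-phase genes. Mitotic genes were also less abundant, and genes with few reads vary more. Among the 4245 genes whose mean lay between 39.7 and 464 normalized counts, the range of the mitotic genes, the median SD was 0.45 and 18.3% had the same 2 high mice. In control mice the highest mouse had a median of 4.27 times the lowest over the mitotic genes (on the count + 1), against 1.68 for the S-phase genes and 1.45 for all genes, and in Ntsr2 AKO mice the ratios were 2.80, 1.44 and 1.40.

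**Figure D3:**
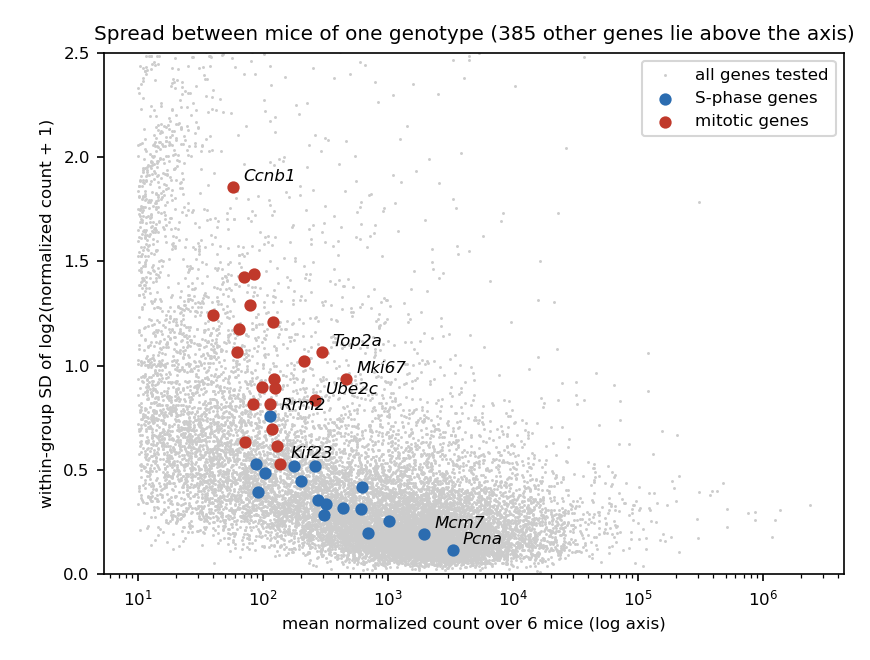
Within-group SD of log2(normalized count + 1), y axis, against the mean normalized count over the 6 mice on a log x axis, for all genes tested (grey), S-phase genes (blue) and mitotic genes (red). The mitotic genes lie between 0.53 and 1.86, Rrm2 is the highest S-phase gene, and Pcna lies lowest at 0.12.

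Promoters of the 38 genes were read for the elements that time their transcription in the cycle, as a description of sequence. The CHR (cell cycle genes homology region) is bound by the DREAM complex, which keeps late cell cycle genes silent in resting cells, and by MuvB with B-MYB and FOXM1 in cycling cells. It usually stands a few turns of the helix downstream of boxes for the activator NF-Y, and E2F elements mark earlier genes. RefSeq windows (GRCm38.p6) from 250 bases before to 50 after the gene start were found for 31 of the 38 genes, all but Mcm4, Gins2, Ccne2, Ccna2, Aurkb, Kif20a and Tpx2. The letters searched on both strands were TTTGAA and TTCGAA for the CHR, CCAAT for the NF-Y box, and TTTCCCGC, TTTCGCGC, TTTGCCGC and TTTGGCGC for E2F. E2F matches of opposite strands can overlap each other.

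A CHR was present in 13 of 17 mitotic genes (76.5%), in 2 of 14 S-phase genes (14.3%, Mcm2 and Mcm7) and in 21.7% of the 27025 genes with a window. All 13 mitotic genes with a CHR also had an NF-Y box, a pair found in 8.61% of all genes, and in 12 of the 13 the nearest CHR lay within 50 bases of the start. NF-Y boxes alone were in 15 of 17 mitotic genes (88.2%), 8 of 14 S-phase genes (57.1%) and 41.1% of all genes. E2F elements showed the opposite order, with 6 of 14 S-phase genes, all 6 among the 7 origin and helicase genes with a window, 1 of 17 mitotic genes (Cdk1) and 704 of all 27025 genes. Of the list of other mitotic genes described further on, 38 of 52 had a CHR (73.1%). Such matches describe the sequence and are not evidence of binding in this tissue, and their relation to the spread between mice was not tested.

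**Figure D4:**
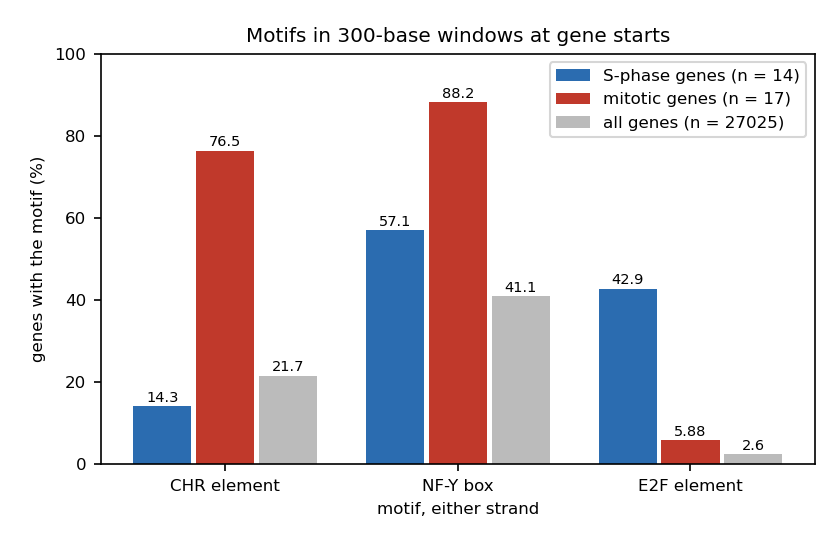
Percentage of genes (y axis) whose window from 250 bases before to 50 after the start holds a CHR, an NF-Y box or an E2F element on either strand, for 14 S-phase genes (blue), 17 mitotic genes (red) and all 27025 genes with a window (grey). The red bars lead for the CHR (76.5%) and the NF-Y box (88.2%), and the blue bar leads for E2F (42.9%).

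The stretches below are shown for the 6 mitotic genes in which a CHR upstream of the start follows an NF-Y box by less than 60 bases, with both elements in capitals (NF-Y box CCAAT or its complement ATTGG, CHR TTTGAA or its complement TTCAAA). From the first base of the box to that of the CHR nearest the start the distance was 33 bases in Cdk1, 35 in Cdc20 and Top2a, 28 in Ube2c, 26 in Kif11 and 43 in Mki67, which has a further CHR between them.
Cdk1, chr10:69352918-69352964, minus strand: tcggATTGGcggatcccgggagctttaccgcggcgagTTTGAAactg
Cdc20, chr4:118437352-118437400, minus strand: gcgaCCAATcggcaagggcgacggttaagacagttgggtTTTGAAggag
Ube2c, chr2:164769868-164769909, plus strand: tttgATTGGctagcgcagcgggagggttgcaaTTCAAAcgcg
Top2a, chr11:99024203-99024251, minus strand: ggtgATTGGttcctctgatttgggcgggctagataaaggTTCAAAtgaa
Mki67, chr7:135716468-135716524, minus strand: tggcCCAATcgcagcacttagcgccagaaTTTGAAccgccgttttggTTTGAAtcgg
Kif11, chr19:37376333-37376372, plus strand: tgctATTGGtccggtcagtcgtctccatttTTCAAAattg

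E2F elements upstream of the start are shown for 4 licensing genes, with the E2F letters in capitals. In Mcm5 and Mcm6 matches of both strands overlap in a single run. The Mcm7 stretch opens with the CHR match of that gene, left in lower case.
Mcm5, chr8:75109348-75109375, plus strand: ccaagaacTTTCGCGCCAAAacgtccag
Mcm6, chr1:128359796-128359823, minus strand: cgtatgctTTTGGCGCGAAAagtgcgtg
Cdc6, chr11:98908005-98908028, plus strand: ggtggagaGCGGGAAAtcgcctgg
Mcm7, chr5:138172033-138172056, minus strand: ttcgaaccGCGGGAAAcagggtgt

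Genes of the same machinery outside the 38 were counted from fixed lists. Of 57 other mitotic genes tested, 46 (80.7%) had control mouse 4 and Ntsr2 AKO mouse 5 as the high mice, with a median within-group SD of 0.86. The share was 17 of 36 for other replication fork genes, 10 of 24 for other origin and helicase genes, 2 of 15 for G1 cyclins, kinases and activating factors and 4 of 24 for inhibitors and repressors of the cycle. In none of these lists did a gene pass an adjusted p of 0.05 with limma. Foxm1, an activator of mitotic genes chosen after its values were seen, had 107, 230 and 96.9 normalized counts in control mice and 85.7, 56.0 and 145 in Ntsr2 AKO mice, again with the same high mice. Mybl2, the gene of B-MYB, had 58.0, 123 and 69.1 in control mice and 98.1, 114 and 103 in Ntsr2 AKO mice. Its highest Ntsr2 AKO mouse was mouse 4, so it did not share the high pair.

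Of the 15 G1 cyclins, kinases and activating factors 4 reached an unadjusted limma p under 0.05, 3 of them lower and 1 higher, beside 8.35% of all genes. Myc, a transcription factor that promotes cell growth and G1 progression, had 2296, 1562 and 2198 normalized counts in control mice and 1143, 628 and 614 in Ntsr2 AKO mice, without overlap (log2 fold change −1.39 ± 0.28 SE, limma adjusted p = 0.499, DESeq2 adjusted p = 0.00385). Ccnd1, cyclin D1, the partner of Cdk4 and Cdk6, had 1470, 2067 and 2119 in control mice and 1464, 853 and 877 in mice of the Ntsr2 AKO group (log2 fold change −0.85 ± 0.26 SE, limma adjusted p = 0.523). These 2 genes and Ccnd2 were lower in every Ntsr2 AKO mouse than in any control mouse, by a narrow gap for Ccnd1. E2f2 was higher in every Ntsr2 AKO mouse than in any control mouse. No overlap thus held for 3 lower genes and 1 higher gene of the 15, beside 15.0% of all genes. Ccnd2 had a log2 fold change of −0.33 and E2f2 one of 0.44, both with an unadjusted limma p under 0.05, whereas Ccnd3 had −0.07 and overlapping groups.

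Among the 24 inhibitors and repressors 3 reached an unadjusted p under 0.05, beside 8.35% of all genes. No overlap held for 2 higher and 3 lower genes of the 24, beside 15.0% of all genes. Cdkn1b, p27, which binds and blocks cyclin E with Cdk2, had 3017, 2705 and 3193 normalized counts in control mice and 3752, 3844 and 4013 in Ntsr2 AKO mice, without overlap (log2 fold change 0.38 ± 0.11 SE, limma adjusted p = 0.522). E2f4, the main repressive E2F of resting cells, and Btg2, an antiproliferative gene, had log2 fold changes of −0.45 and −0.55. Cdkn1a, p21, had 14165, 9694 and 8523 normalized counts in control mice and 8147, 10135 and 3249.7 in Ntsr2 AKO mice, which overlapped, and Cdkn2c, p18, had a log2 fold change of 0.31 with overlapping groups.

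Of the 24 other origin and helicase genes 3 reached an unadjusted p under 0.05, beside 8.35% of all genes. No overlap held for 6 higher genes and 1 lower gene of the 24, beside 15.0% of all genes. Orc6, a subunit of the origin recognition complex, had 669, 787 and 764 normalized counts in control mice and 991, 1145 and 1158 in mice of the Ntsr2 AKO group (log2 fold change 0.57 ± 0.14 SE, limma adjusted p = 0.520, DESeq2 adjusted p = 0.0365). Mcm9, a helicase of DNA repair, had 0.70 and Timeless, a fork protection protein, −0.46. Rfc4, a subunit of the loader of Pcna, was the only gene of 36 at the fork with an unadjusted p under 0.05 (log2 fold change 0.59). There Rpa3, with a log2 fold change of 0.62, had the next smallest p. Cdc25b, a phosphatase that activates Cdk1, was the only such gene among the 57 mitotic genes, with 204, 312 and 213 normalized counts in control mice and 392.2, 456 and 483 in mice of the Ntsr2 AKO group (log2 fold change 0.89 ± 0.23 SE, limma adjusted p = 0.522), followed by Ckap5 (−0.26).

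Marker lists of other cell types were set beside the mitotic sums, because bulk tissue cannot tell a larger number of dividing cells from more RNA in each. Summed macrophage markers were 35811, 102454 and 64285 in control mice and 52273, 38589 and 84571 in Ntsr2 AKO mice, and 7 of the 9 markers tested had the same 2 high mice as the mitotic genes. Erythroid markers did so in 6 of 6 cases, with sums of 51611 to 143155 in control and 52601 to 173847 in Ntsr2 AKO mice. No macrophage marker was at 0 in any mouse, and 1 erythroid marker was. Macrophage and erythroid signals therefore moved with the mitotic genes across these mice, and their part in the mitotic values was not tested.

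Other lists had another order of mice. The high pair was shared by 0 of 10 T and NK cell markers (sums of 361 to 1713 in control and 330 to 683 in Ntsr2 AKO mice), 0 of 8 B cell markers, 0 of 8 endothelial markers, 1 of 10 adipocyte markers and 2 of 10 markers of adipose progenitors. The progenitor sum was highest in Ntsr2 AKO mouse 5 (174057), though in controls it was highest in mouse 5 (122180) and not in mouse 4 (97300). Skeletal muscle markers were lowest in control mouse 4 (395). The markers Il7r, Icam1 and Krt19 were lower and Mzb1 was higher in Ntsr2 AKO mice at an unadjusted limma p under 0.05, with adjusted p from 0.522 to 0.580, and Mzb1 passed with DESeq2 (adjusted p = 0.0459).

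**Figure D5:**
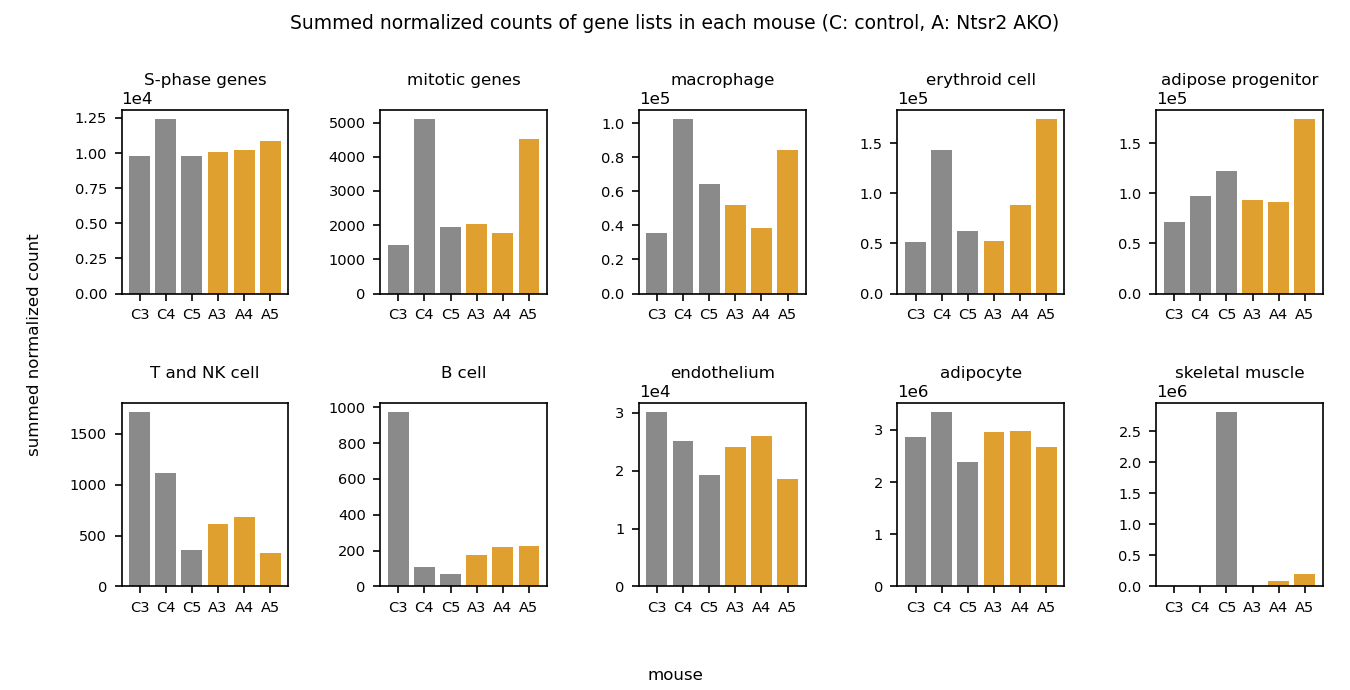
Summed normalized counts (y axes, each from 0) of the S-phase genes, the mitotic genes and 8 lists of cell type markers in each mouse, control mice in grey (C3 to C5) and Ntsr2 AKO mice in orange (A3 to A5). Control mouse 4 and Ntsr2 AKO mouse 5 have the tallest bar of their group in the mitotic, macrophage and erythroid panels and, by a smaller lead, in the S-phase panel. Control mouse 5 has the tallest bar in the skeletal muscle panel.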

How the data were processed

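Trimmomatic (trimming), Hisat2 (alignment) and StringTie (a read count per gene) are the tools the authors name. The submitters' processing notes name mm10, and the annotation is not given in the sources used here. They deposited a signal table of normalized counts, read counts divided by a size factor for each mouse, which was read from the values. Division by the step of each column gave whole reads for 100% of the values (tolerance 0.01). No other column of values was present, and no 2 columns were identical. StringTie derives counts from coverage, so totals approximate reads. The labels do not say how the mice were sampled beyond their genotype, and p-values measure the spread between these 6 libraries.

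Values were analysed as log2(normalized count + 1), and 16157 genes with a mean of at least 10 were tested with limma 3.58.1 (trend, R 4.3.3) with genotype as the only term in a fit of all 6 mice and Benjamini-Hochberg adjustment over all genes. A fold change on this scale understates that of low genes. Because the table does not hold counts, edgeR 4.0.16 (TMM) and DESeq2 1.42.0 were alternatives, run on the recovered reads. The procedure was tested on simulated data. Exon lengths and positions are from GENCODE M21 (GRCm38), and the library kit is not described as marking strand. Mice were put into groups by the genotype label.

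The 38 genes, the other lists and the alternatives were chosen with earlier results of these data known. Of the 38 genes, those with the highest mean or the smallest p in each of 6 role groups were given with values in every mouse. This rule also covered any of the 38 without overlap or with an unadjusted p below 0.05. Members of other lists were named when their unadjusted p fell below 0.05 or ranked among the 2 smallest of a pathway list. Some inhibitors and G1 cyclins were named as well. Only part of these other genes were given with values in every mouse, and the rest with a log2 fold change or a direction. The lists of plasma cell, lymph node stroma, mesothelium and epithelium markers had 1 of 5, 0 of 5, 0 of 3 and 0 of 2 tested genes with the same 2 high mice. The exclusion of 2 sets of mice was added after the data were seen.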

Additional observations from a re-analysis of the deposited data

How the results depend on the processing

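No gene of the 38 passed an adjusted p of 0.05 in any alternative: pseudocounts of 0.1 and 5, the unfiltered table, a minimum mean of 50 (37 genes left), quantile normalization, eBayes without a trend, edgeR, DESeq2, a skeletal muscle score as a covariate, the replicate block, and the omission of single or several mice. At an unadjusted p under 0.05 there were 0 to 2 genes of the 38 when a single mouse was left out, Ube2c without control mouse 3 (log2 fold change −0.91) and Plk1 (1.23) and Rrm2 (0.84) without control mouse 4. Of all 16157 genes, 1361 reached that mark without control mouse 3 and 1393 without control mouse 4. The median of the mitotic genes ran from −0.49 without Ntsr2 AKO mouse 5 to 0.80 without control mouse 4, turned negative without control mouse 3 (−0.21) or 5 (−0.04), and was 0.01 with edgeR and DESeq2, where 5 genes changed sign (17 higher and 21 lower). Without the 3 mice rich in muscle markers (control 5, Ntsr2 AKO 4 and 5) the medians were −0.22 for S-phase and −0.36 for mitotic genes. In that fit with 3 mice the lone Ntsr2 AKO mouse was assumed to vary like the controls. Of all 38 genes 4 were higher and 34 lower in it. Without control mouse 4 and Ntsr2 AKO mouse 5 the medians were 0.04 for S-phase and 0.24 for mitotic genes. The deviations of mice with the same number correlated at 0.45, −0.24 and 0.41, and those of mice with other numbers at −0.52 to 0.26. These values do not settle whether the numbers mark pairs. The labels do not call them pairs, so the main fit left the numbers out. With the replicate block the medians were −0.02 and 0.10 as without it, and 1303 instead of 1349 of all genes had an unadjusted p under 0.05. No member was found by edgeR or DESeq2 at an unadjusted p under 0.05. The effect of depth was not tested.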
